A study of Mus musculus with 9 samples.

Results

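Genes of the pre-B cell receptor and of V(D)J recombination were followed in mouse blood progenitors that carried DNMT3A vectors. The 10 genes were Vpreb1, Vpreb2, Vpreb3, Igll1, Cd79a, Cd79b, Blnk, Rag1, Rag2 and Dntt, chosen by name, and 12 probes named them, of 20660 genes and 55681 probes in all. The cells were LSK cells (lineage-negative, Sca-1-positive, Kit-positive marrow cells, the fraction that holds stem cells and early progenitors) of the C57BL/6 strain. They had been given a GFP-labelled empty vector (EV), the same kind of vector with wild-type DNMT3A (WT), or one with the DNMT3A R882H substitution, and were sorted again as LSK cells from transplanted mice. DNMT3A methylates DNA de novo, and R882H recurs in patients with acute myeloid leukaemia. Each group had 3 arrays, so 9 Agilent 1-colour arrays were made from 3.67 ng of total RNA each, amplified before labelling. All 3 groups, the empty vector cells included, were transduced, transplanted and sorted, and the vectors are expressed on top of the cells' own Dnmt3a. The sources used here do not give age, time after transplantation or the number of mice behind an array, and p-values measure the spread between these arrays, which may be technical in part.

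The pre-B cell receptor is made before a light chain exists. It pairs the rearranged heavy chain with a surrogate light chain, built from a VpreB protein (Vpreb1 or Vpreb2) and lambda5 (Igll1), and it signals through Cd79a and Cd79b to the adaptor Blnk. Rag1 and Rag2 form the recombinase that cuts antigen receptor gene segments, and Dntt (terminal transferase) adds bases at their joints. In marrow, Dntt and the Rag genes come on in lymphoid-primed progenitors within or just beyond the LSK fraction, while the surrogate light chain and Cd79a mark commitment to the B lineage, which normally lies outside it.

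RefSeq promoter windows (GRCm38.p6, 250 bases before to 50 after the start site) were at hand for 9 of the 10 genes and not for Cd79b. The upstream 250 bases of Vpreb1, Vpreb2, Igll1 and Cd79a are shown because these are the surrogate light chain genes and the receptor gene with the larger differences from the empty vector arrays. Capitals mark matches to CAGGTG (an E-box core, read as CACCTG on the other strand) and, in Igll1, to CCCNNGGG (an Ebf-type core).
Vpreb1, chr16:16869256-16869505, minus strand: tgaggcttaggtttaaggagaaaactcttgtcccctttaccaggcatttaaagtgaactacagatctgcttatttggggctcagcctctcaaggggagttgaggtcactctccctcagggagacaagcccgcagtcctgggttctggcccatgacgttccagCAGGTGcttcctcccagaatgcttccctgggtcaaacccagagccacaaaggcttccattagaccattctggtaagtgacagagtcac
Vpreb2, chr16:17980315-17980564, plus strand: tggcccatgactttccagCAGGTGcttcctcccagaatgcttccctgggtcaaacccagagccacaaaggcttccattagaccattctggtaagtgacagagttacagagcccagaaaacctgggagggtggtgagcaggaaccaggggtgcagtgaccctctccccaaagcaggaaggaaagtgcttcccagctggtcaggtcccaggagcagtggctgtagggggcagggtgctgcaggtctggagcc
Igll1, chr16:16863986-16864235, minus strand: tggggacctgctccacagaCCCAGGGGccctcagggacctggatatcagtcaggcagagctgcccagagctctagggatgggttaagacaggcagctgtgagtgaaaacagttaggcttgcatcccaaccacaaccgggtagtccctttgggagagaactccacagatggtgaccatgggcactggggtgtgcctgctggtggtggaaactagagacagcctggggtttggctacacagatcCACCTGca
Cd79a, chr7:24897247-24897496, plus strand: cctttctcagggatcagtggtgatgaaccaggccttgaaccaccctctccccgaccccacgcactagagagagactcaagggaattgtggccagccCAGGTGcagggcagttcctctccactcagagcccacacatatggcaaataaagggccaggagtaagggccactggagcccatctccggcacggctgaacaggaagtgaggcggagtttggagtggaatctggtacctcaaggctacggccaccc

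The match to CAGGTG lay at -88 from the start site in Vpreb1, -232 in Vpreb2, -154 in Cd79a and -8 in Igll1. The Vpreb1 and Vpreb2 windows shared a stretch of 156 aligned bases with 153 identical (98.1%), so the same block, its CAGGTG included, sat at a different distance from the 2 annotated starts. The 2 genes are near-identical copies on chromosome 16 with 35 protein-coding genes between them. The probe sequences were not used here, so the signal of a Vpreb1 or Vpreb2 probe cannot be assigned to 1 copy with certainty.

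Vpreb3 and Blnk held the octamer ATTTGCAT, a core bound by Oct factors, and 40 bases around it are shown for that reason, with the octamer in capitals.
Vpreb3, chr10:75948239-75948278, plus strand: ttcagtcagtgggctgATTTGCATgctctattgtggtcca
Blnk, chr19:40994328-40994367, minus strand: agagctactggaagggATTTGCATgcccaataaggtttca

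The octamer lay at -45 from the start site in Vpreb3 and -130 in Blnk. Both strands of 32851 RefSeq windows of 300 bases were searched for the 3 motifs. CAGGTG was present in 20.2% of all windows and in 6 of the 9 windows here (Vpreb1, Vpreb2, Igll1, Cd79a, Blnk and Rag1). ATTTGCAT was present in 1.74% of all windows and in 2 of the 9, and CCCNNGGG in 13.7% and in 1 of the 9. None of the 3 motifs matched in the Rag2 and Dntt windows, which says only that these letters are absent there. Vpreb1 and Igll1 are neighbours on chromosome 16, Rag1 and Rag2 on chromosome 2, and Blnk and Dntt on chromosome 19, each pair with 0 protein-coding genes between.

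Levels below are log2 signals relative to the 75th percentile of the same array, so 0 is the signal of a probe brighter than 75% of the array's probes, and 1 unit is a doubling. A probe is called well above background by the scanner software's own flag. Between 53.4% and 64.8% of probes were well above background on an array, and no spot was saturated. Kit and Ly6a (Sca-1), which define the sort, were well above background on all 9 arrays, with levels of 3.88 to 4.63 for Kit and 1.02 to 2.91 for Ly6a. The arrays lay on 3 slides: slide 1 held the 3 EV arrays and WT replicate 1, slide 2 held WT replicates 2 and 3 and R882H replicates 1 and 2, and slide 3 held R882H replicate 3. No slide held both EV and R882H arrays, so that contrast has no value within a slide. Groups follow the sample each scanner file was deposited under. In the authors' deposited table of values, the columns matched other arrays than their names say for 7 of 9 samples, and the match crossed groups for 4. Both readings are therefore given below, and which of them is right was not tested.

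No gene of the 13120 tested passed an adjusted p of 0.05 in any of the 3 comparisons (limma, Benjamini-Hochberg over all genes), so percent called was 0.00 and none of the 10 genes is called. In R882H against EV the smallest adjusted p over all genes was 0.314, which Cd79a, at rank 18 by p, shares with the genes ranked above it. At an unadjusted limma p under 0.05, 705 genes (5.37%) were higher and 495 (3.77%) lower in R882H than in EV. Against WT the counts were 471 higher (3.59%) and 592 lower (4.51%), and for WT against EV 446 higher (3.40%) and 333 lower (2.54%). Of the 10 genes, 9 were tested and Igll1 was not, because no group had it well above background on each of its 3 arrays. Among these 9, 6 were higher in R882H than in EV at an unadjusted p under 0.05, and none was lower. With slide as a block, the count of 6 fell to 1, Rag1, while that over all genes tested fell from 705 to 378. All 3 R882H arrays lay above all 3 EV arrays for the same 6 (Vpreb1, Vpreb2, Vpreb3, Cd79a, Blnk and Rag1), against 9.12% of all genes tested. By its readings the untested Igll1 had this order too. It is not counted, since R882H replicate 1 and all EV arrays were not well above background for it. Vpreb3 and Cd79a were tested only because all 3 R882H arrays detected them, so their share in these counts was favoured by the detection rule. With 3 arrays against 3, an exact two-sided permutation test of a single gene cannot go below p = 0.1.

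**Figure D1:**
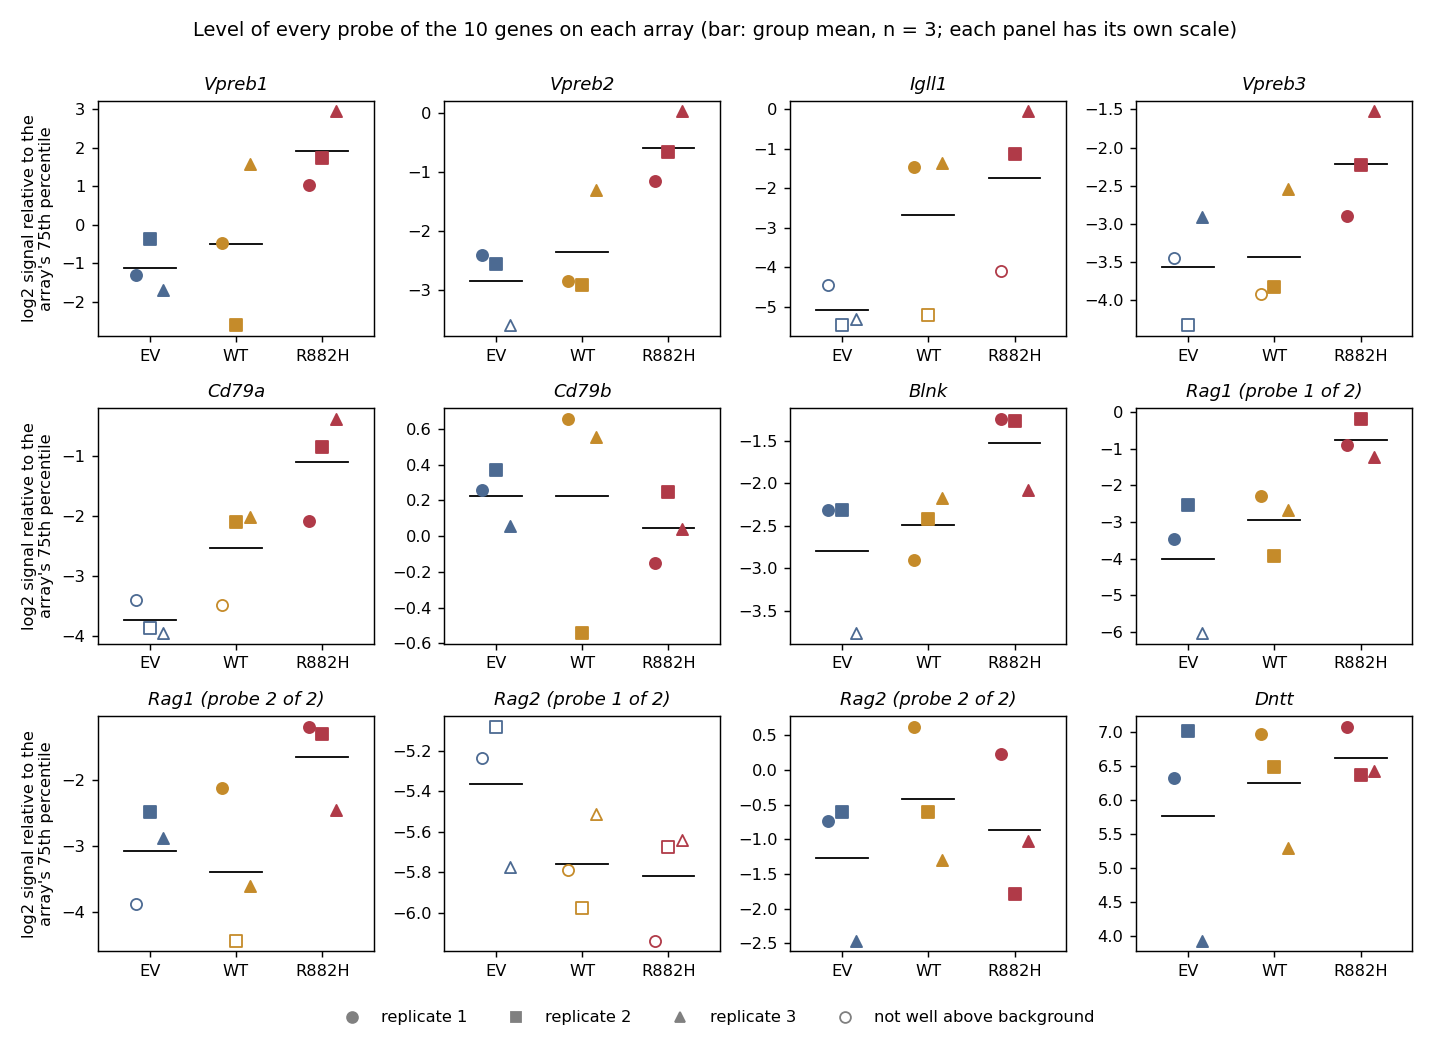
Level of each of the 12 probes on each of the 9 arrays, as log2 signal with the array's 75th percentile at 0 (y axis, own scale per panel), by group (x axis); bars are group means of 3 arrays, marker shapes are replicate numbers and open markers are not well above background. The R882H arrays sit above every EV array for Vpreb1, Vpreb2, Vpreb3, Cd79a, Blnk and both Rag1 probes, while Cd79b, Rag2 and Dntt overlap and Igll1 has R882H replicate 1 and all EV arrays at background.

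The surrogate light chain genes come first. Vpreb1, the VpreB chain of the pre-B receptor, stood at -1.31, -0.36 and -1.71 on EV replicates 1 to 3, at -0.48, -2.61 and 1.57 on WT replicates 1 to 3, and at 1.03, 1.74 and 2.95 on R882H replicates 1 to 3. It was well above background on all 9 arrays. All R882H arrays lay above all EV arrays, but WT replicate 3 lay above R882H replicate 1, and the WT arrays spread over a wider range than either other group (SD 2.09, against 0.69 for EV and 0.97 for R882H, n = 3 each). The difference from EV was 3.03 ± 0.94 (SE) log2 units, at a limma adjusted p = 0.515. Against WT the difference was 2.42 ± 0.94 (limma adjusted p = 0.584), and WT minus EV was 0.62 ± 0.94 (limma adjusted p = 0.916). Single WT arrays moved these values: R882H minus WT was 1.36 without WT replicate 2 and 3.45 without WT replicate 3, and without the latter WT minus EV turned to -0.42.

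Vpreb2, the second VpreB copy, stood at -2.41, -2.55 and -3.59 on the EV arrays, at -2.84, -2.91 and -1.31 on the WT arrays, and at -1.15, -0.67 and 0.03 on the R882H arrays. Here the R882H arrays lay above both other groups, with WT replicate 3 again the highest control, 0.16 units below the lowest R882H array. The differences were 2.25 ± 0.50 from EV (limma adjusted p = 0.352) and 1.76 ± 0.50 from WT (limma adjusted p = 0.550). WT exceeded EV by 0.50 ± 0.50 (limma adjusted p = 0.883). EV replicate 3 was the 1 array of 9 on which Vpreb2 was not well above background.

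Igll1, the lambda5 chain that completes the surrogate light chain, was either near background or clearly present. It read -4.45, -5.47 and -5.30 on the EV arrays, none of them well above background. The WT arrays read -1.45, -5.21 and -1.34, with replicate 2 not above background. The R882H arrays read -4.08, -1.12 and -0.05, with replicate 1 not above background. R882H was at least 4.64-fold higher than EV and WT at least 2.45-fold higher than EV. Each value is set against the lowest signal of any probe called on each EV array, and brighter probes were not always called. The R882H mean includes replicate 1, and the WT mean replicate 2, neither of them well above background. Without the detection rule, the limma adjusted p for R882H against EV was 0.787. WT and R882H overlapped, with 2 of 3 arrays above background in each, and WT replicate 1, on the EV slide, was among the positive ones.

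Vpreb3 encodes a VpreB-like protein that binds free immunoglobulin chains in B lineage cells. Its EV arrays read -3.44, -4.32 and -2.91, its WT arrays -3.91, -3.83 and -2.54, and its R882H arrays -2.90, -2.22 and -1.52. It was well above background on 1 EV, 2 WT and 3 R882H arrays. The groups R882H and EV touched, since R882H replicate 1 lay 0.01 units above EV replicate 3, and WT replicate 3 lay within the R882H range. The difference was 1.34 ± 0.50 from EV (limma adjusted p = 0.527) and 1.21 ± 0.50 from WT (limma adjusted p = 0.602). WT minus EV was 0.13 ± 0.50 (limma adjusted p = 0.966).

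Next come the signalling chains of the receptor. Cd79a, the first of them, was not well above background on any EV array (-3.39, -3.86 and -3.94). It was above background on WT replicates 2 and 3, with levels of -3.48, -2.10 and -2.01 on WT replicates 1 to 3, and on all 3 R882H arrays (-2.07, -0.85 and -0.38). R882H was at least 5.71-fold higher than EV (measured means -1.10 ± 0.87 and -3.73 ± 0.30, SD, n = 3 each; limma adjusted p = 0.314), and Cd79a ranked 18 of the 13120 genes by p. A normexp background correction gave R882H minus EV as 1.01 log2 units, so the 5.71-fold bound holds only on the scale used here. R882H exceeded WT by 1.42 ± 0.50 (SE, limma adjusted p = 0.551), with R882H replicate 1 just below WT replicate 3. WT was at least 2.13-fold higher than EV (limma adjusted p = 0.820), and this was the only one of the 9 tested genes under an unadjusted p of 0.05 in that comparison, where 3.40% of all genes were. It was no longer so, leaving 0 of 9, without EV replicate 3, WT replicate 2 or WT replicate 3, and with slide as a block, normexp or array weights. Cd79a levels also followed the slides: the highest array of slide 1 stood at -3.39 and the lowest of slide 2 at -2.10. With slide as a block, where R882H replicate 3 is alone on its slide and drops out, the R882H difference from EV was 0.84 ± 0.63, and group and slide cannot be told apart for most of this contrast.

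Cd79b, the partner chain that forms a heterodimer with Cd79a, was well above background on all 9 arrays. It read 0.26, 0.37 and 0.06 in EV, 0.66, -0.54 and 0.55 in WT, and -0.15, 0.25 and 0.04 in R882H. The 3 groups overlapped, and R882H minus EV was -0.18 with a 95% confidence interval of -0.87 to 0.51 (limma adjusted p = 0.837). R882H minus WT was -0.18 (-0.86 to 0.51; limma adjusted p = 0.883). A difference the size of that of Cd79a lies outside both intervals. Whether Cd79a and Cd79b differed in their response was not tested.

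Blnk, the adaptor that Syk phosphorylates below the receptor, read -2.31, -2.31 and -3.76 in EV, -2.90, -2.42 and -2.17 in WT, and -1.25, -1.27 and -2.08 in R882H. All R882H arrays were above all arrays of both controls, the nearest being WT replicate 3, which lay 0.09 units below R882H replicate 3. EV replicate 3 was the 1 array not well above background. The differences were 1.26 ± 0.42 from EV (limma adjusted p = 0.527) and 0.96 ± 0.42 from WT (limma adjusted p = 0.613), and WT minus EV was 0.30 ± 0.42 (limma adjusted p = 0.915).

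Of the recombinase genes, Rag1 separated R882H from both controls on its brighter probe and Rag2 did not. The brighter Rag1 probe read -3.45, -2.54 and -6.03 in EV, -2.29, -3.92 and -2.68 in WT, and -0.90, -0.19 and -1.22 in R882H. The R882H arrays lay more than 1 unit above every control array. EV replicate 3 was not well above background. R882H exceeded EV by 3.24 ± 0.81 (limma adjusted p = 0.440) and WT by 2.19 ± 0.81 (limma adjusted p = 0.554), and WT exceeded EV by 1.05 ± 0.81 (limma adjusted p = 0.875). Without EV replicate 3 the difference from EV was 2.23.

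A second Rag1 probe gave a smaller difference from EV. It read -3.87, -2.48 and -2.88 in EV, -2.13, -4.43 and -3.61 in WT, and -1.20, -1.31 and -2.46 in R882H. This probe was well above background on 2 EV, 2 WT and 3 R882H arrays, so only R882H brought it past the detection rule. In a limma fit over 31242 detected probes, R882H exceeded EV by 1.42 ± 0.61 (adjusted p = 0.544) and WT by 1.73 ± 0.61 (adjusted p = 0.667), while WT minus EV was -0.31 ± 0.61 (adjusted p = 0.920). R882H replicate 3 lay 0.02 units above the highest EV array and below WT replicate 1. The 2 probes thus had the same sign against both controls but disagreed on the sign of WT minus EV.

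Rag2 encodes the partner subunit of the recombinase. The probe that was well above background on all 9 arrays read -0.73, -0.61 and -2.46 in EV, 0.63, -0.61 and -1.29 in WT, and 0.23, -1.78 and -1.02 in R882H. The groups overlapped throughout, and R882H minus EV was 0.41 with a 95% confidence interval of -1.16 to 1.97 (limma adjusted p = 0.839). R882H minus WT was -0.44 (-2.001 to 1.13; limma adjusted p = 0.872), and WT minus EV 0.84 ± 0.69 (limma adjusted p = 0.875). These intervals include differences of several-fold in either direction. The other Rag2 probe was not well above background on any array.

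Dntt, the terminal transferase, was well above background on every array. It read 6.33, 7.02 and 3.94 in EV, 6.98, 6.49 and 5.29 in WT, and 7.08, 6.36 and 6.43 in R882H. EV replicate 3 lay below all other arrays, WT replicate 3 was the next lowest, and the groups overlapped. R882H minus EV was 0.86 ± 0.74 (limma adjusted p = 0.685), R882H minus WT was 0.37 ± 0.74 (limma adjusted p = 0.903) and WT minus EV was 0.49 ± 0.74 (limma adjusted p = 0.916). Without EV replicate 3 the difference between R882H and EV was -0.05. EV replicate 3 was also the array with the highest summed signal of 9 myeloid markers, 778 times the array's 75th percentile signal against 311 to 654 on the other arrays. It had the lowest summed signal of 10 stem cell markers, 51.4 against 62.4 to 93.2. The part of these in the Dntt, Rag1 and Blnk values was not tested.

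**Figure D2:**
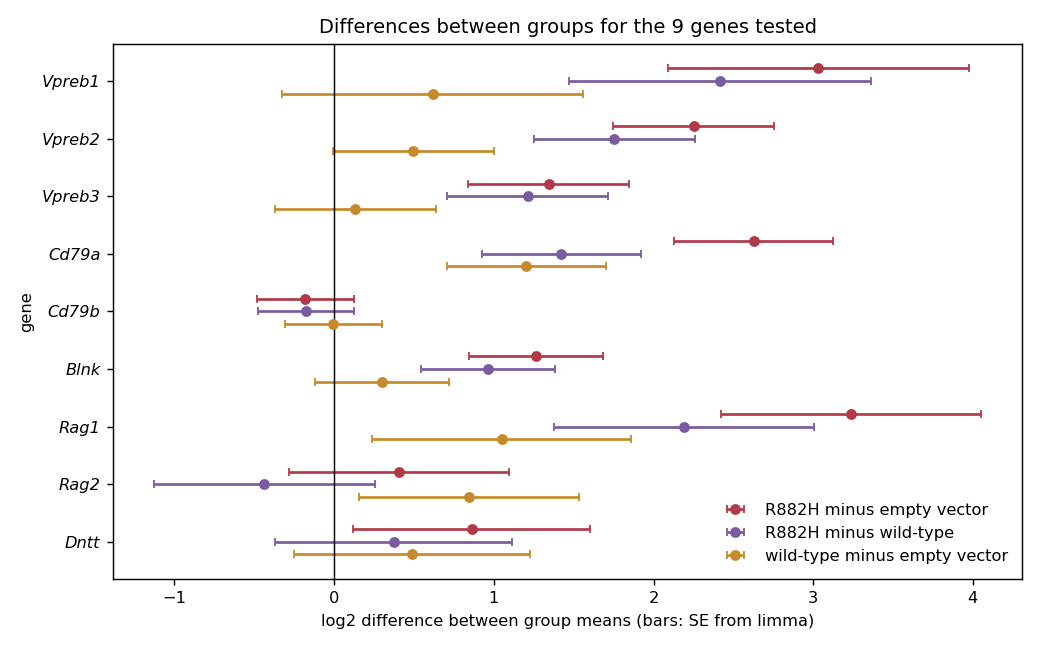
Differences between group means in log2 units (x axis) with limma standard errors (bars) for the 9 tested genes (y axis), 3 arrays per group. R882H minus EV ran from 3.24 for Rag1 and 3.03 for Vpreb1 to -0.18 for Cd79b, and no difference had an adjusted p under 0.05.

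Over the 9 tested genes, 8 had a higher mean in R882H than in EV, where 46.8% of all genes did, and the median difference was 1.34, against -0.03 over all 13120 genes. Against WT, 7 were higher (47.6% of all genes), 6 of them at an unadjusted p under 0.05, and the median was 1.21 against -0.02. That count of 6 was 1 without R882H replicate 2, 3 without R882H replicate 3, 2 without WT replicate 1, 2 without WT replicate 2 (with 1 then lower) and 1 with slide as a block. Over all 13120 genes, 387 were higher at that p with slide as a block, against 471 in the main fit. Counts over all genes with these arrays left out are not given here. All R882H arrays lay above all WT arrays for 3 genes (Vpreb2, Blnk and Rag1), against 6.68% of all genes. For WT against EV, 8 had the higher mean (51.0% of all genes), with a median of 0.50 against 0.01, and no gene separated the groups (5.53% of all genes did upwards). The comparisons share arrays, so these counts are not independent of each other. The 4 genes well above background on all 9 arrays (Vpreb1, Cd79b, Rag2 and Dntt) had a median of 0.63 against EV and 0.10 against WT, and each of the other 5 was not well above background on at least 1 control array. In whole sorted samples, more cells with a transcript and more transcript per cell cannot be told apart.

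**Figure D3:**
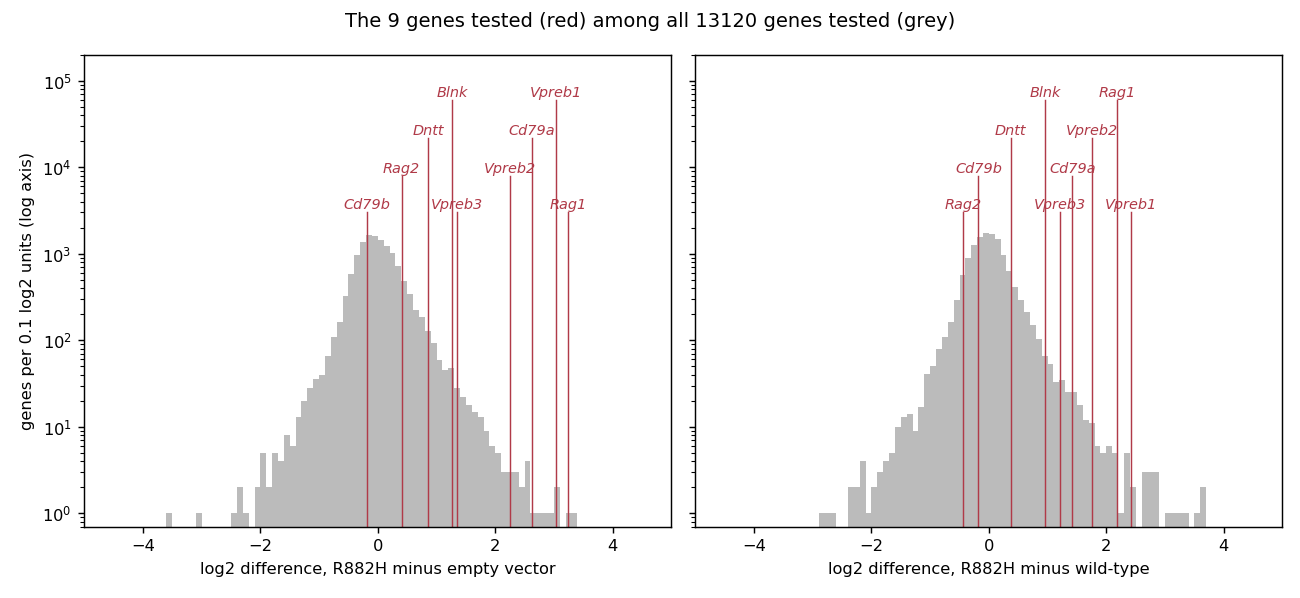
Number of genes per 0.1 log2 units (y axis, log scale) by difference (x axis) for R882H minus EV (left) and R882H minus WT (right), over 13120 genes in grey, with the 9 tested genes as red lines. In the left panel Vpreb1, Rag1, Cd79a and Vpreb2 lie above 2 units, where few genes are, while Cd79b and Rag2 lie in the bulk of the distribution.

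Within slide 2, which held 2 WT and 2 R882H arrays, the R882H mean was higher for all 10 genes. The differences were 2.75 for Rag1 (2.77 by its second probe), 1.91 for Vpreb1, 1.20 for Vpreb2 and 1.04 for Blnk. They were 0.83 for Dntt, 0.68 for Igll1, 0.62 for Vpreb3, 0.59 for Cd79a, 0.17 for Rag2 and 0.04 for Cd79b, with no test on 2 arrays a group. On slide 1, WT replicate 1 differed from the EV mean by 1.89 for Rag2 and 1.72 for Rag1 (0.95 by its second probe). EV replicate 3 was not well above background for the brighter Rag1 probe. Igll1 was well above background on that WT array and on none of the EV arrays, and Cd79a on none of the 4. With slide as a block over all arrays, R882H replicate 3 has no weight. R882H and EV are then joined only through WT, and WT replicate 1 is the only such array on slide 1. On that footing R882H minus EV was 4.47 for Rag1, 2.55 for Vpreb1, 2.06 for Rag2 and 2.05 for Dntt. It was 1.21 for Vpreb2, 0.94 for Blnk, 0.47 for Cd79b and 0.27 for Vpreb3 (limma adjusted p of 0.835 to 0.967 over the tested genes). The size of the Cd79a difference was thus below the pooled 1.42 within slide 2, and that of Rag1 above its pooled 2.19.

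Read by the column names of the authors' deposited table, which is on a log2 scale centred on each probe's median so that only differences between columns can be read, the R882H columns lay above the EV columns for Vpreb1, Vpreb2, Vpreb3, Igll1, Cd79a and Blnk. By those names in the authors' deposited table, R882H exceeded EV by 2.80 for Vpreb1, 1.95 for Vpreb2, 1.79 for Vpreb3, 2.49 for Cd79a and 0.67 for Blnk. The Rag1 difference in the authors' deposited table was 1.40 with overlapping columns. Its second probe overlapped too, with means of 0.02 for R882H and -0.35 for EV. The Rag2 difference was -1.13, with all R882H columns below all EV columns, and that of Dntt was -0.75 with overlap. Of the 6 genes whose R882H arrays lay above the EV arrays by the scanner labels, Rag1 was the one that overlapped under those names, and 0 genes passed the adjusted threshold there too. By the same names the R882H columns lay above the WT columns for Vpreb1, Vpreb3, Igll1 and Cd79a. They overlapped the WT columns for Vpreb2, Blnk and Rag1, the genes that separated R882H from WT by the scanner labels. The column named R882H replicate 3 matched the WT replicate 3 array, and that named EV replicate 3 matched the WT replicate 1 array.

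**Figure D4:**
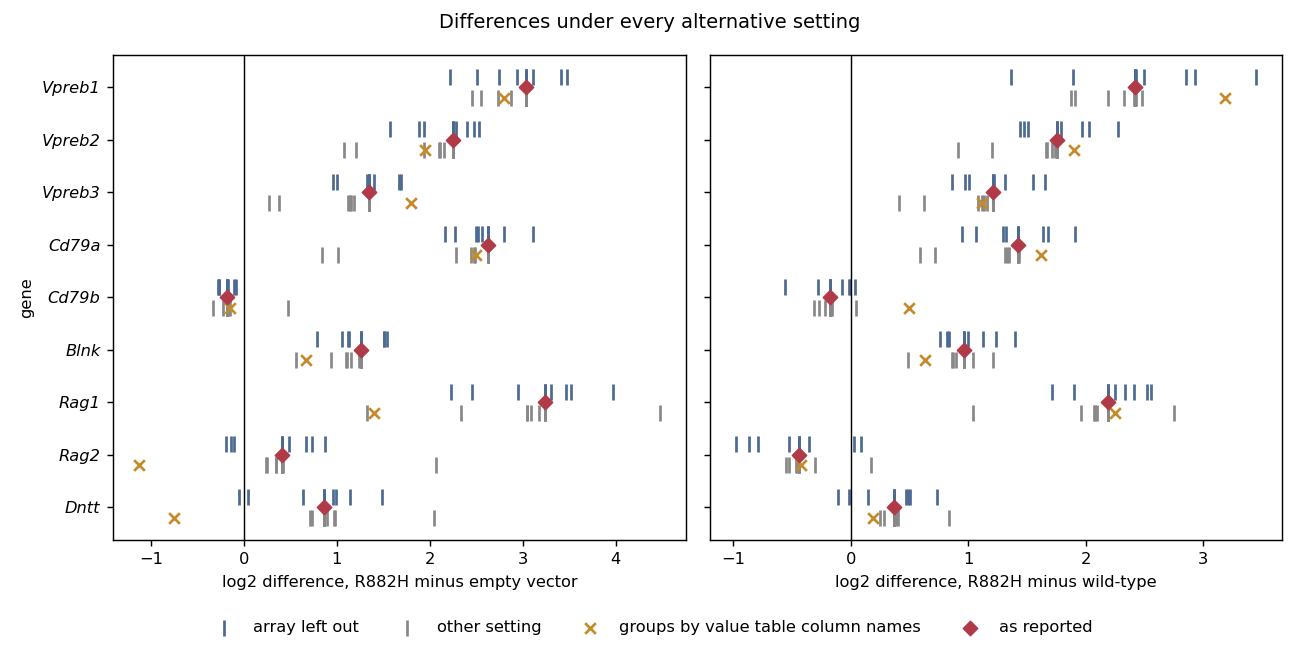
Difference in log2 units for R882H minus EV (left) and R882H minus WT (right) for each of the 9 tested genes (y axis), as reported (red diamonds), with arrays left out (blue), under the other settings (grey) and by the value table's column names (crosses). Vpreb1, Vpreb2, Vpreb3, Cd79a, Blnk and Rag1 stay above 0 in both panels under every setting drawn, and Cd79b, Rag2 and Dntt cross it in at least 1 panel.

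A normexp background correction gave smaller R882H minus EV differences for several genes, with 1.32 for Rag1, 1.07 for Vpreb2, 1.01 for Cd79a, 0.56 for Blnk and 0.38 for Vpreb3. Vpreb1, well above background on all arrays, stood at 2.45 under it. The signs and the lack of an adjusted call were the same as before for these 6 genes.

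The 9 tested genes fell into groups by their course over the 9 arrays, given here as a description of arrays that share a platform and slides. Vpreb1 and Vpreb2 had a Pearson correlation of 0.93. Vpreb2 and Cd79a had 0.88, and Blnk and Rag1 had 0.88. Rag2 and Dntt had 0.81 with each other and -0.04 and 0.18 with Vpreb1. Cd79b had no correlation above 0.31 with any of the others. Rag1 was correlated at 0.69 with Dntt and at 0.37 with its neighbour Rag2.

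**Figure D5:**
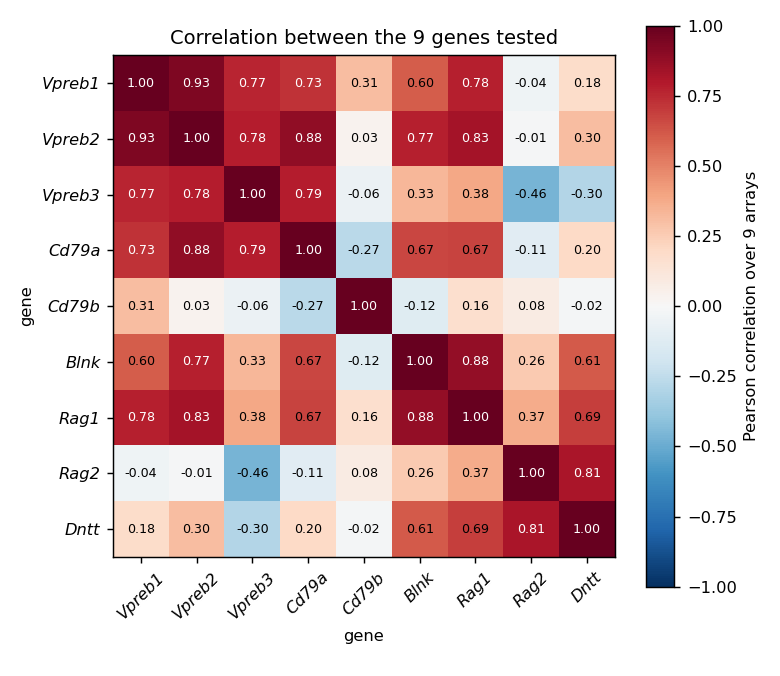
Pearson correlation over the 9 arrays between the levels of the 9 tested genes (both axes; colour and printed value from -1 to 1). Vpreb1, Vpreb2, Vpreb3 and Cd79a correlate at 0.73 to 0.93 among themselves, and Rag2 and Dntt at 0.81, apart from them.

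The mean course of the 9 genes, each scaled over the arrays, was lowest on EV replicate 3 and highest on R882H replicate 3. The genes outside the list with the course most like it over the 9 arrays were Prpf40b (r = 0.956), Tgtp2 (0.955), Hoxd13 (0.946), Gbp2 (0.936) and Gng11 (0.933). Tgtp2 and Gbp2 encode interferon-inducible GTPases, and Hoxd13 a homeobox factor. Their R882H minus EV differences ran from 0.89 for Prpf40b to 1.61 for Gng11.

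The wider machinery around these genes was read from lists of genes, and no member of any list passed the adjusted threshold (limma, Benjamini-Hochberg) in any comparison. Of 14 end-joining genes, which seal the breaks that Rag1 and Rag2 make, 5 were higher and 9 lower in R882H than in EV, with a median of -0.04. Nhej1 (XLF, a ligation factor) was 0.52 ± 0.22 higher, with all R882H arrays above all EV arrays (limma adjusted p = 0.535). Xrcc4, the partner of DNA ligase IV, was 0.80 ± 0.36 higher with overlap. Hmgb1, a cofactor of the recombinase, was at -0.26 ± 0.14, with the R882H arrays below the EV arrays.

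Among 22 genes of signalling below the pre-B receptor, 20 were tested, 10 were higher and 10 lower in R882H than in EV, and the median was 0.01. The 3 with the smallest p were the adaptors Pik3ap1 (-0.52 ± 0.38) and Bcl10 (-0.26 ± 0.19) and the phosphatase Ptpn6 (-0.25 ± 0.19). None of these 20 had an unadjusted p under 0.05.

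Of 14 B lineage transcription factors, 11 were tested, and 8 were higher and 3 lower in R882H than in EV (median 0.38). Irf4, a factor of pre-B and later stages, was not well above background on any EV or WT array and was so on all 3 R882H arrays (-3.60, -0.23 and -1.88), so it was tested only through R882H. R882H replicate 1 lay below EV replicate 2, at -3.21. Irf4 was at least 3.89-fold higher than EV (limma adjusted p = 0.527) and at least 3.86-fold higher than WT (limma adjusted p = 0.549). Pou2af1, a B cell coactivator of Oct factors, was 2.94 ± 1.03 higher than EV (limma adjusted p = 0.527) with no overlap. WT replicate 3 at 0.46 lay within the R882H range. Pou2af1 was well above background on 2 EV, 2 WT and 3 R882H arrays, so it too was tested only through R882H. Foxo1, which activates the Rag genes in B progenitors, was 0.61 ± 0.34 higher with overlap. Ebf1, named here after its values were seen, was above background on 1 R882H array and no other.

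Markers of later B cells were read for other B lineage cells in the sort. Of 14 such genes, 12 had a probe and 8 were tested, and 7 were higher and 1 lower in R882H than in EV (median 0.25). Those with the smallest p were Pou2af1 (tested only through R882H), Cr2 (0.40 ± 0.21) and Fcer2a (0.37 ± 0.24). Ms4a1 (CD20), Fcrla and Blk were not well above background on any array. The summed signal of the 8 tested genes was 38.4 to 41.7 times the 75th percentile signal on the EV arrays, 40.4 to 44.9 on the WT arrays and 40.9 to 42.8 on the R882H arrays. The part of B lineage cells in the differences of Vpreb1, Vpreb2, Cd79a and Rag1 was not tested.

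Of 8 markers of lymphoid-primed progenitors, 4 were higher and 4 lower in R882H than in EV (median -0.03). Satb1 stood at -0.51 ± 0.27, and Il7r, the receptor chain of the B progenitor cytokine IL-7, at 1.65 ± 0.96. The summed signal of these 8 was 36.4 to 45.8 in EV, 44.6 to 48.7 in WT and 32.9 to 41.0 in R882H. Of 17 T lineage markers 9 were tested, 6 higher and 3 lower than in EV (median 0.25), with Cd3d, Cd2, Cd8a and Cd8b1 above background on no array and Cd3e at -0.84 to -0.05. Named after their values were seen, Thy1 stood at -0.81 ± 0.21 against EV (limma adjusted p = 0.440) with all R882H arrays below all EV arrays, and at -0.69 ± 0.21 for WT minus EV (limma adjusted p = 0.758). Cd4 stood at 0.37 ± 0.14 against EV (limma adjusted p = 0.527) with no overlap. The summed signal of the 9 T lineage markers was 10.9 to 13.0 in EV, 9.98 to 11.01 in WT and 10.2 to 12.5 in R882H.

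Plasmacytoid dendritic cells also express Dntt and Rag genes in mouse marrow. Of 8 of their markers 7 were tested, 5 higher and 2 lower than in EV (median 0.34). Siglech stood at 4.58 to 4.90 over the 9 arrays by 1 of its 2 probes, and the other did not pass the detection rule. The summed signal of the 7 tested markers was 30.2 to 34.2 in EV, 33.7 to 36.7 in WT and 33.0 to 37.1 in R882H. Of 9 tested myeloid markers 1 was higher and 8 lower in R882H than in EV (median -0.90), with sums of 377 to 778 in EV, 386 to 654 in WT and 311 to 455 in R882H. The myeloid marker Itgam differed by -0.10 ± 0.15, while the granule genes Elane and Mpo, named after their values were seen, differed by -1.73 ± 0.90 and -0.90 ± 0.40, with overlap. Of 6 tested erythroid markers 3 were higher and 3 lower (median 0.33), with sums of 10.6 to 29.1 in EV, 10.5 to 17.9 in WT and 14.1 to 21.9 in R882H. All 10 stem cell and LSK markers had a higher mean in R882H than in EV (median 0.45), with sums of 51.4 to 93.2 in EV, 62.4 to 93.2 in WT and 73.0 to 89.1 in R882H. The part of any of these cell types in the values of the 10 genes was not tested.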

How the data were processed

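The data were 9 Agilent mouse 8x60K arrays in 1 colour (EV, WT and R882H, n = 3 each). Per the file headers, the software that measured spot intensities was Feature Extraction 10.10.1.1 and the array design was 028005. The deposited intensity column is the background-corrected processed signal. Control spots and 154 to 184 outlier spots per array were left out, spots of 1 probe were averaged over 55681 probes, and each array's 75th percentile was subtracted on the log2 scale. The authors' deposited value table is on the log2 scale, with column medians of 0 or -0.0023, and was used only as an alternative; how it was made is unknown. Probes were named through RefSeq (27235 with 1 symbol), and a gene was read from its probe with the highest mean. A probe was kept if some group had it well above background on each of its 3 arrays, with the flag on at least 50% of a probe's spots. Groups were compared over 13120 genes with limma 3.58.1 (R 4.3.3; lmFit and eBayes, 6 residual and 2.82 prior degrees of freedom), with Benjamini-Hochberg adjustment and a threshold of 0.05. The median standard error was 0.232 log2 units, and 3 arrays a group limit the precision. The code was tested on simulated data.

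An "at least" fold sets the brighter group's mean against, per array, the higher of the dim probe's signal and the lowest signal of any probe well above background. It is a bound only in that sense, on the log2 scale used here, and not under another background correction or a block. A probe could be brighter than that lowest signal and still not be called, as Cd79a was on EV replicate 1 (-3.39, against -3.72). Summed signals are linear. Members and lists were chosen with earlier results of these data known. Named genes are the 10 members, the 3 genes of each pathway list with the smallest p for R882H against EV, defining markers of other cells, and the 5 genes with the most similar course; a few genes that this rule names are not reported here. Alternatives were other background corrections, normalizations, filters, fits, blocks and arrays left out. Correlations of same-numbered deviations were 0.116, 0.222 and 0.325 for WT with EV arrays. They were 0.0884, 0.198 and 0.279 for R882H with EV, and 0.0713, 0.137 and 0.239 for R882H with WT. All were positive, and only WT with EV had each value above the limit of 0.1 set for pairing, by a small margin. The labels do not say what the numbers stand for.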

Additional observations from a re-analysis of the deposited data

How the results depend on the processing

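No gene and none of the 9 tested members passed the adjusted threshold under any of the settings tried. Vpreb1, Vpreb2, Vpreb3, Cd79a, Blnk and Rag1 stayed higher in R882H than in both controls under every setting that tested them. Of these, only Vpreb1 was tested when probes had to be well above background on all 9 arrays. The 3 arrays a group, the slides shared by few groups and probes near background limit these values. The normexp correction used median pixel signals.

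The median over members against EV was 0.63 with only probes detected on all 9 arrays, and against WT it was 0.10 under that filter and 0.49 with normexp. The median for WT minus EV ran from -0.10 to 0.9998 with arrays left out and was -0.38 by the value table's column names, a reading chosen after the data were seen. Under those names the signs turned for R882H minus EV of Rag2 (-1.13) and Dntt (-0.75), R882H minus WT of Cd79b (0.49), and WT minus EV of Vpreb1 (-0.38), Rag1 (-0.86), Rag2 (-0.71) and Dntt (-0.94).

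With slide as a block, in which R882H replicate 3 has no weight, Cd79b turned to 0.47 against EV and 0.042 against WT, Rag2 against WT to 0.17, and WT minus EV to -0.35 for Vpreb3, 0.43 for Cd79b and -0.10 for Blnk. Near-zero differences of WT minus EV also turned for Vpreb3 and Cd79b with normexp (-0.0365 and 0.0653) and array weights (-0.0111 and 0.0816). The cause was not tested. With the replicate block, fitted over all 3 groups, no call changed. WT minus EV stayed at 0 genes called (562 higher and 505 lower at an unadjusted limma p under 0.05). R882H minus EV had 887 higher and 918 lower at that p, and its Vpreb3 difference was 1.34 with a limma adjusted p = 0.250.

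With arrays left out, R882H minus EV ran from -0.19 to 0.87 for Rag2 and from -0.0521 to 1.49 for Dntt. R882H minus WT ran from -0.56 to 0.0398 for Cd79b, from -0.98 to 0.0892 for Rag2 and from -0.11 to 0.74 for Dntt. WT minus EV ran from -0.25 to 0.38 for Cd79b, -0.71 to 1.67 for Vpreb1, -0.40 to 0.78 for Vpreb2, -0.31 to 0.46 for Vpreb3, -0.35 to 0.54 for Blnk, -0.42 to 1.12 for Dntt and -0.10 to 1.78 for Rag1.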
